A study of Mus musculus with 46 samples.

Results

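The MYC network was followed through 9 genes, taken by symbol: the activators Myc, Mycn and Mycl, their shared partner Max, and the repressors Mxd1, Mxd3, Mxd4, Mnt and Mxi1. They are 9 of the 37108 genes of the gene table, and 33 of the 106520 transcripts of a second table, in which transcripts were summed by symbol. All 9 were found in both tables and passed the filter on low values, which was at least 1 FPKM in at least 2 libraries. FPKM is the number of fragments scaled to the length of the gene model and to the mapped fragments of the library, so it allows levels to be compared between genes. No Myc vector was used for reprogramming, and the values are therefore those of the cells' own genes.

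The series measured mRNA in mouse embryonic fibroblasts (MEF) turned towards induced pluripotent stem cells (iPSC) by retroviral Oct4 together with 1 of 2 forms of Nanog. NanogWT cells received Oct4 and native Nanog (Nanog+Oct4 in the sample labels). NanogBiD cells received Oct4 and Nanog fused to a short N-terminal piece of SS18 that binds BRG1, the motor of the BAF chromatin remodelling complex (NanogN70+Oct4 in the labels). Libraries were made on 8 days from D0 to D12, with 2 per combination and day, except that NanogBiD had 1 at D8, which gave 31 libraries.

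All MEF carried the Oct4-GFP reporter of OG2 mice and came from mid-gestation embryos. D0 followed 2 rounds of infection, and no group with an empty vector was analysed here. Both combinations were changed to the induction medium iCD3 at D0, after infection, and moved at about D7 to N2B27 with 2iL. The 2iL supplement is LIF with CHIR99021, an inhibitor of the kinase GSK3, and PD0325901, an inhibitor of MEK. Changes from D0 therefore also span the start of iCD3, and time and this medium cannot be told apart in them. The gene table also held 2 MEF libraries and 1 library of mouse embryonic stem cells (mES). The transcript table held 12 iPSC libraries kept in 2iL without feeders, 6 per combination, labelled iPSC1 or iPSC2, with 2 MEF and 1 mES. These 2 labels are called lines here and the library numbers clones, though the labels do not say what either stands for. Of the NanogWT iPSC1 libraries, 1 and 1-2 share a clone number, and whether they are separate cultures is not stated. The column names of that table carry p2 for every iPSC2 and MEF library, p5 or p6 for iPSC1 and p20 for mES, so the line and whatever this mark stands for cannot be told apart. How the libraries of 1 line relate is not stated, and nothing in the labels says that the 2 libraries of a day came from separate cultures. The p-values therefore measure the spread between these samples, which may be technical.

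MYC, MYCN and MYCL are transcription factors that bind DNA only as dimers with MAX, at the E-box CACGTG and related sites, where they raise transcription of genes for ribosome production, metabolism and division. The MXD proteins, MXI1 and MNT compete for MAX and bring the SIN3 histone deacetylase complex to the same sites. Myc was 1 of the original reprogramming factors, Mycl can stand in for it, and embryonic stem cells rely on Myc and Mycn together.

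On mm10, Myc lies at chr15:61985391-61990374, Mycl at chr4:122995652-123002485, Mnt at chr11:74830920-74845725 and Mxi1 at chr19:53310518-53375810, all on the plus strand. On the minus strand lie Mycn at chr12:12936093-12941914, Max at chr12:76937269-76962201, Mxd1 at chr6:86647042-86669161, Mxd3 at chr13:55325168-55329823 and Mxd4 at chr5:34173883-34187720. The E-box that this network reads also occurs next to some of its own genes. Promoter windows of 250 bases before to 50 bases after the annotated start were taken from RefSeq (GRCm38.p6). Of the 9 genes, 8 had a window and Myc had none in the table used. CACGTG, which reads the same on both strands, was in the windows of Mxd4, Mnt and Max, 3 of 8, and in 8.09% of the 27025 genes with a window. The 3 stretches below are shown because they hold the site. Each is 60 bases long, is written 5′ to 3′ on the strand of its gene and has the E-box in capitals. Relative to the start, the first base of the E-box lay at position -219 in Mxd4 (chr5:34187897-34187956, minus strand), at -123 in Mnt (chr11:74830774-74830833, plus strand) and at -3 in Max (chr12:76962219-76962278, minus strand).
Mxd4: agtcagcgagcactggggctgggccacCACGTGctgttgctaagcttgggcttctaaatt
Mnt: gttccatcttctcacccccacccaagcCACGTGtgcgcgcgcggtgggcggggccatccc
Max: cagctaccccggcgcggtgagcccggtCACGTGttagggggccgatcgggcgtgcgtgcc

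The windows of Mycn, Mycl, Mxd1, Mxd3 and Mxi1 held no CACGTG. The 250 bases before the start of Mycn (chr12:12941836-12942086, minus strand) and of Mycl (chr4:122995681-122995931, plus strand) are shown because these genes rose most in the time course. The first transcribed base by RefSeq is in capitals. Both RefSeq starts lie inside the gene spans given above, which are from GENCODE. The Mycl stretch lies wholly within its span, so its window does not cover the bases before that span. A match is a stretch of letters and not a measured binding site.
Mycn: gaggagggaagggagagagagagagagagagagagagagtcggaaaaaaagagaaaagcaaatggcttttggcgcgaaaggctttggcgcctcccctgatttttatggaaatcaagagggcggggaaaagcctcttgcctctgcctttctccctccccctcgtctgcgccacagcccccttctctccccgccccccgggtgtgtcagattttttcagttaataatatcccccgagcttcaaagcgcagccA
Mycl: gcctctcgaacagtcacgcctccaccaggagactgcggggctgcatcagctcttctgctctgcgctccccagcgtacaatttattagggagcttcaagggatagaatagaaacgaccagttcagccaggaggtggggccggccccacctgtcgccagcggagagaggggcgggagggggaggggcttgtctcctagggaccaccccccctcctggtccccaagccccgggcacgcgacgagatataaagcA

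Depth differed between the combinations late in the time course. Judged by the FPKM that 1 read was worth in low genes, the 6 NanogWT libraries of D8 to D12 were 1.84 to 3.17 times as deep as the median time-course library, and the 5 NanogBiD libraries of those days 0.808 to 1.02 times. The other time-course libraries lay at 0.869 to 1.10 times. From D8 on, combination and depth cannot be told apart. Markers of the starting and final cells followed the labels: the summed FPKM of 10 fibroblast markers was 5871 to 6829 in MEF and 5.27 in mES, and that of 10 pluripotency markers at most 13.97 in MEF and 3994 in mES. In bulk RNA, fewer cells of a type and less RNA per cell cannot be told apart.

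The 3 MYC genes moved in different directions, and in NanogBiD cells the main MYC family transcript passed from Myc to Mycn. Between D0 and D12, Myc fell in NanogBiD while Mycn and Mycl rose, and Mxi1 and Mnt rose among the repressors while Mxd4 fell. In NanogWT, Mycn and Mycl rose later and to lower levels, Myc was called at D7 and D1 but not at D12, and Mxd4 reached its highest values of the series after D7. Max was within 17.4 to 31.8 FPKM in all 34 libraries of the gene table.

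Each comparison was tested with limma on log2(FPKM + 1) over all genes that passed the filter, and calls required both an adjusted p below 0.05 and a change of 1 or more on the log2 scale. With 2 libraries per combination and day, groups often fail to overlap by chance. Lack of overlap is therefore given below only as a description, and its share over all genes was not counted. Between NanogBiD and NanogWT, 0 of the 9 genes were called at D0, where 0.760% of 16842 genes were, 1 at D1 (1.33% of all genes), 0 at D3 (3.70%), 1 at D5 (6.48%), 2 at D7 (10.4%), 5 at D10 (27.8%) and 5 at D12 (23.4%). At D0 and D3, 1 and 3 members had an unadjusted p under 0.05. The genes called were Myc at D1, Mycn at D5, Mycn and Mycl at D7, and Myc, Mycn, Mycl, Mxd4 and Mxi1 at both D10 and D12.

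**Figure D1:**
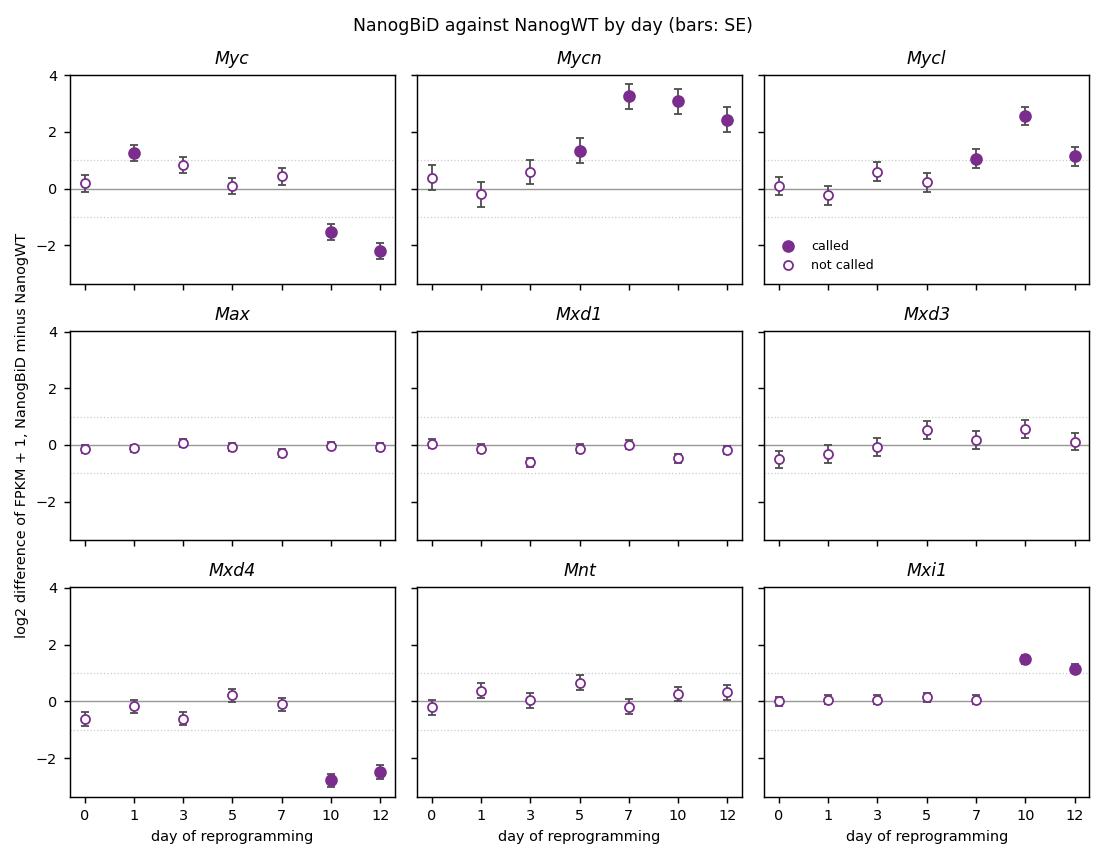
Log2 difference of FPKM + 1 (vertical axis, NanogBiD minus NanogWT) by day (horizontal axis) for the 9 genes. Points are estimates, bars their SE, filled points passed the test and dotted lines mark a log2 difference of 1 in size. Myc changes sign, from 1.25 at D1 to -2.22 at D12, and Max stays between -0.30 and 0.08.

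Myc, which drives growth and division and was the MYC gene of MEF, was at 28.2 and 30.9 FPKM in MEF. At D0 it was at 22.2 and 10.3 in NanogWT and at 19.8 and 15.2 in NanogBiD, all below MEF. The mean of both D0 groups was lower than MEF by a log2 difference of -0.83 (SE 0.24, adjusted p = 0.0128), which did not reach the limit of 1. In this comparison 0 of the 9 members were called against 8.45% of 17049 genes, with 6 members at an unadjusted p under 0.05. Without the first NanogWT D0 library, the one at 22.2, Myc was called lower than MEF (-1.09, adjusted p = 0.000631), and without the second MEF library Mycl (1.76, adjusted p = 0.00194) and Mnt (-1.19, adjusted p = 0.00623) were. Mycl was also called with a pseudocount of 0.1 (1.38, adjusted p = 0.0421).

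At D1, Myc was at 6.14 and 4.78 FPKM in NanogWT and at 15.9 and 12.7 in NanogBiD. Both NanogBiD libraries lay above both NanogWT libraries, by a log2 difference of 1.25 (SE 0.28, adjusted p = 0.0179). The call was lost without either NanogWT library (1.40, adjusted p = 0.0621, and 1.09, adjusted p = 0.160), without the first NanogBiD library (1.09, adjusted p = 0.203), and when D1 alone was fitted (adjusted p = 0.212). From D0 to D1, a comparison added after seeing the data, Myc fell in NanogWT by 1.33 on the log2 scale (SE 0.28, adjusted p = 0.00188). In NanogBiD it differed from D0 by -0.27 (SE 0.28, adjusted p = 0.558). The difference between these changes was 1.07 (SE 0.40, adjusted p = 0.373) and was not called.

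In the D0 to D1 comparison, 2 members were called in NanogWT (7.64% of all genes) and 1 in NanogBiD (8.85%), and 0 for the difference of the changes (0.344%), where 1 member had an unadjusted p under 0.05. The other calls were of Mycl, which fell by 1.11 in NanogWT (SE 0.33, adjusted p = 0.021) and by 1.45 in NanogBiD (SE 0.33, adjusted p = 0.00309). Without the first NanogWT D0 library, neither Myc (-0.81, adjusted p = 0.0515) nor Mycl (-1.003, adjusted p = 0.0963) was called in NanogWT, and none of the 3 calls stood when only the compared groups were fitted. Mycl in NanogWT was also lost without either D1 library (adjusted p = 0.064 and 0.124), and Mycn in NanogBiD was called with a pseudocount of 0.1 (-2.30, adjusted p = 0.0237).

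Myc stayed at 4.92 to 8.29 FPKM in the NanogWT libraries of D3 to D7 and then lay at 10.9 and 9.86 at D8, 9.44 and 10.7 at D10, and 10.4 and 13.9 at D12. In NanogBiD it was at 14.7 and 10.5 at D3, 8.57 and 6.51 at D5, 6.57 and 9.51 at D7 and 9.33 in the single D8 library. It then reached 2.67 and 2.91 at D10 and 1.40 and 2.29 at D12, next to 1.75 in mES. The D10 and D12 groups did not overlap, and NanogBiD lay below NanogWT by -1.54 at D10 (SE 0.28, adjusted p = 0.000121) and -2.22 at D12 (SE 0.28, adjusted p = 2.42e-06). Both NanogBiD D12 libraries bracketed the mES library, which had no replicate and was not tested.

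**Figure D2:**
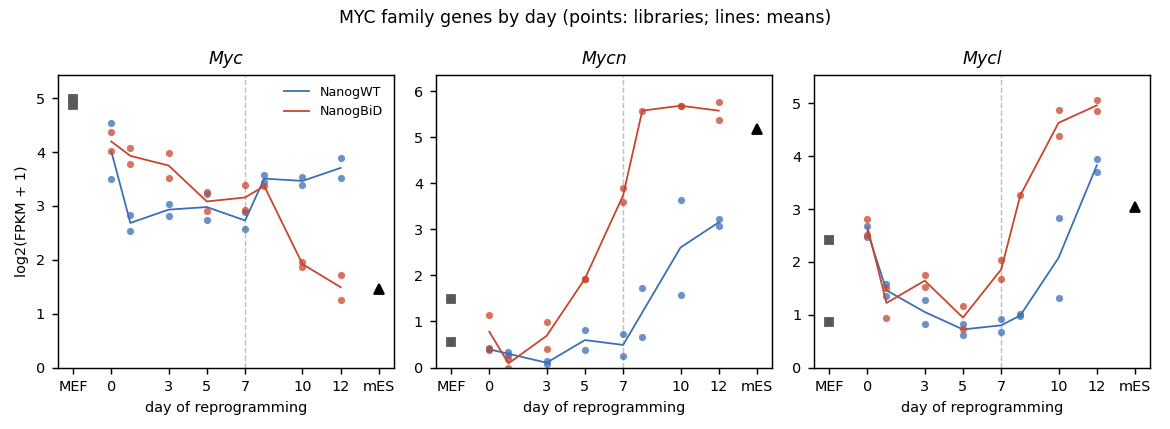
Levels of Myc, Mycn and Mycl as log2(FPKM + 1) (vertical axis) by day of reprogramming (horizontal axis), with squares for the 2 MEF libraries and a triangle for mES. Points are libraries, lines join group means, and the dashed line marks D7. NanogBiD Mycn reaches 40.7 to 53.5 FPKM at D8 to D12, above every NanogWT library, while NanogBiD Myc ends at 1.40 and 2.29 FPKM.

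Mycn, the family member of early embryo and neural progenitors, was at or under 1.79 FPKM in MEF and in every library of D0 to D3, and was listed at 0 in 1 of the NanogBiD D1 libraries. In NanogBiD it was at 2.81 and 2.79 at D5, 11.1 and 13.8 at D7, 46.7 at D8, 50.2 and 50.5 at D10 and 53.5 and 40.7 at D12. In NanogWT it was at 0.296 and 0.764 at D5, 0.195 and 0.653 at D7, 0.590 and 2.30 at D8, 1.99 and 11.4 at D10 and 7.46 and 8.34 at D12. The combinations did not overlap on any of these days, and the mES library stood at 35.3. The difference was 1.33 at D5 (SE 0.44, adjusted p = 0.0429), 3.25 at D7 (SE 0.44, adjusted p = 1.44e-05), 3.08 at D10 (SE 0.44, adjusted p = 6.88e-06) and 2.42 at D12 (SE 0.44, adjusted p = 0.000123).

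The Mycn call at D5 was lost without any 1 of the 4 D5 libraries (1.11 to 1.55, adjusted p 0.0677 to 0.271), without the filter (adjusted p = 0.0876) and with quantile normalization (adjusted p = 0.0532). Those at D7, D10 and D12 kept their side of the threshold in every alternative run. The 2 NanogWT libraries of D10 differed widely, at 1.99 and 11.4 FPKM.

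Mycl, which can replace Myc in reprogramming, was at 0.813 and 4.36 FPKM in MEF and at 4.52 to 6.05 in the 4 D0 libraries. It was between 0.530 and 1.98 in every NanogWT library of D1 to D8, and between 0.664 and 3.11 in every NanogBiD library of D1 to D7. At D8 the NanogBiD library had 8.59. At D10 it was at 19.97 and 28.4 in NanogBiD and 1.50 and 6.14 in NanogWT, and at D12 at 28.1 and 32.4 against 14.5 and 12.1.

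Mycl thus ended in both combinations above the single mES library, at 7.21, and the groups did not overlap at D7, D10 or D12. NanogBiD was higher by 1.06 at D7 (SE 0.33, adjusted p = 0.021), 2.56 at D10 (SE 0.33, adjusted p = 2.28e-06) and 1.13 at D12 (SE 0.33, adjusted p = 0.00764). The D7 call was lost with quantile normalization (0.95), without the second NanogBiD library (0.88, adjusted p = 0.152) and without the first NanogWT library (0.94, adjusted p = 0.130). The D12 call was lost without the second library of either combination (1.04, adjusted p = 0.0513, for NanogBiD and 1.01, adjusted p = 0.0566, for NanogWT).

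Max, the shared partner of the activators and the repressors, was at 22.9 and 26.5 FPKM in MEF and 23.4 in mES. At D12 it was at 27.7 and 24.5 in NanogWT and 28.7 and 21.4 in NanogBiD. The 2 combinations overlapped at D12, and on no day was Max called. Its 95% interval for NanogBiD minus NanogWT on the log2 scale was -0.35 to 0.22 at D12.

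**Figure D3:**
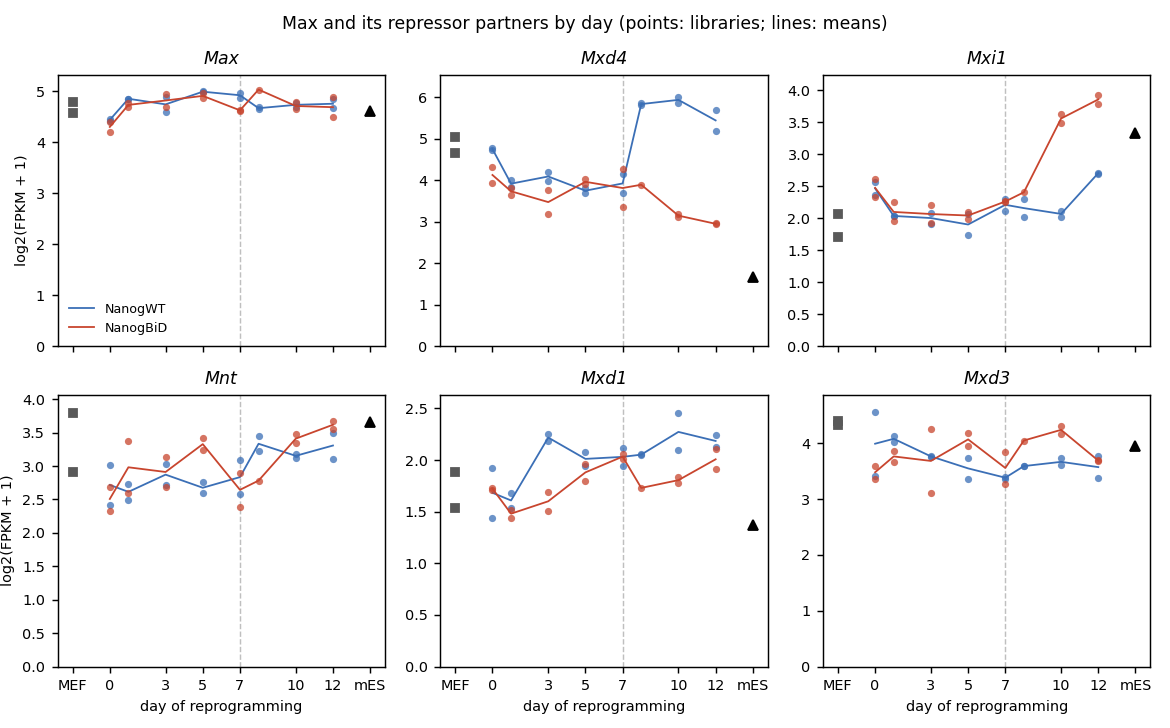
Levels of Max and of the 5 repressor genes as log2(FPKM + 1) (vertical axis) by day (horizontal axis), drawn as for the MYC genes, with each panel on its own scale from 0. NanogWT Mxd4 steps up between D7 (16.7 and 11.9 FPKM) and D8 (54.8 and 57.0), and NanogBiD Mxi1 climbs to 12.7 and 14.2 FPKM at D12.

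Mxd4, a MXD repressor usually found in resting and differentiating cells, was at 31.9 and 24.1 FPKM in MEF and 2.16 in mES. In NanogWT it was at 26.4 and 25.4 at D0, at 11.9 to 17.2 in all libraries of D1 to D7, then at 54.8 and 57.0 at D8, 63.6 and 56.7 at D10 and 50.5 and 35.5 at D12. In NanogBiD it was at 18.8 and 14.4 at D0, 18.1 and 9.29 at D7, 13.8 at D8, 7.66 and 8.04 at D10 and 6.78 and 6.65 at D12. From D8 on the combinations were far apart, with NanogWT above its own D0 and above MEF.

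NanogBiD was lower in Mxd4 by -2.79 at D10 (SE 0.24, adjusted p = 1.3e-08) and -2.49 at D12 (SE 0.24, adjusted p = 5.83e-08). Fibroblast markers moved with Mxd4: 9 of the 10 were lower in NanogBiD at D10 and 9 at D12, and their summed level was 2626 to 3529 FPKM in the NanogWT libraries of D8 to D12 and 299 to 983 in those of NanogBiD. Of the 10, 5 were listed at 0 in 1 of the 34 libraries and the others in none, and their part in the Mxd4 difference was not tested.

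Mxi1, a further SIN3-recruiting repressor of the family, was at 2.26 and 3.20 FPKM in MEF and at 2.34 to 5.10 in the time course up to D8 in both combinations. At D10 it was at 10.2 and 11.4 in NanogBiD against 3.05 and 3.33 in NanogWT, and at D12 at 12.7 and 14.2 against 5.54 and 5.48. The groups did not overlap on either day, and the mES library had 9.03. NanogBiD was higher by 1.49 at D10 (SE 0.16, adjusted p = 2.01e-07) and 1.15 at D12 (SE 0.16, adjusted p = 5.96e-06). Mxi1 was thus called in the same direction as Mycn and Mycl, and opposite to Mxd4.

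Mnt, the broadly expressed antagonist of MYC, was at 12.9 and 6.49 FPKM in MEF, 10.8 and 11.8 in NanogBiD at D12, 10.3 and 7.65 in NanogWT at D12 and 11.6 in mES. It was called between the combinations on no day, with log2 differences of -0.21 to 0.65. Mxd1, which is switched on when cells leave the cycle, was at 1.58 to 4.48 FPKM in all 34 libraries and was not called either. Its largest difference was -0.62 at D3 (SE 0.16, adjusted p = 0.0143), where NanogWT had 3.77 and 3.54 and NanogBiD 1.85 and 2.23, and the groups did not overlap.

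Mxd3, a family member linked to the S phase of dividing cells, was at 7.66 to 22.7 FPKM in all 34 libraries and was called on no day. Its values are uncertain: it overlaps Prelid1, which lies on the other strand, by 105 bases, Prelid1 had a median of 243 FPKM, and the sources used here do not say if strand was used in counting. Mxd4 and Mxi1 also overlap annotated transcripts of the other strand, by 1001 bases with Gm42846 and by 5146 and 201 bases with AC133451.2 and Gm10197, which are not in the gene table. For MEF and mES libraries, which are in both tables, the summed transcripts of Mxd3 gave 0.246 to 0.448 times the gene value, while the other 8 members gave 0.721 to 1.38 times. Without the second NanogWT D0 library, Mxd3 was called lower in NanogBiD at D0 (-1.08, adjusted p = 0.038).

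Within each combination, 2 members were called between D0 and D7 in NanogWT (17.7% of all genes) and 2 in NanogBiD (18.8%). Myc was lower at D7 in both, by -1.29 in NanogWT (SE 0.28, adjusted p = 0.00115) and -1.04 in NanogBiD (SE 0.28, adjusted p = 0.00562). Mycl was lower in NanogWT by -1.78 (SE 0.33, adjusted p = 0.000233), and Mycn was higher in NanogBiD by 2.96 (SE 0.44, adjusted p = 1.71e-05). The Myc call was lost in NanogWT without the first D0 library (-0.76) and when D0 and D7 alone were fitted (adjusted p = 0.152), and in NanogBiD without the first library of D0 (-0.86, adjusted p = 0.0648) or of D7 (-0.80, adjusted p = 0.08). The median over all genes was 0.12 in NanogWT and 0.24 in NanogBiD. In NanogWT, Mxd4 was called without the first D7 library (-1.05, adjusted p = 0.00796) and Mxd3 without the second D0 library (-1.18, adjusted p = 0.00534), and Mycl was called in NanogBiD with quantile normalization (-1.14, adjusted p = 0.0103).

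Between D0 and D12, 2 members were called in NanogWT (16.2% of all genes) and 6 in NanogBiD (34.7%). Both NanogWT calls were rises, of Mycn by 2.76 (SE 0.44, adjusted p = 4.68e-05) and Mycl by 1.25 (SE 0.33, adjusted p = 0.00531). In NanogBiD, Mycn rose by 4.80 (SE 0.44, adjusted p = 1.41e-08), Mycl by 2.30 (SE 0.33, adjusted p = 6.31e-06), Mxi1 by 1.38 (SE 0.16, adjusted p = 3.41e-07) and Mnt by 1.11 (SE 0.26, adjusted p = 0.00103). Myc fell by 2.71 (SE 0.28, adjusted p = 9.88e-08) and Mxd4 by 1.18 (SE 0.24, adjusted p = 0.000254). The median over all genes was 0.19 in NanogWT and 0.34 in NanogBiD. Without the second NanogBiD D0 library Mnt was at 0.94, with quantile normalization it was at 0.753 and Mycl in NanogWT at 0.995, and without the first NanogBiD D0 library Mxd4 was at -0.99, all under the limit of 1.

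A call in 1 combination and not in the other is no test of a difference, so the changes from D0 were compared between the combinations as an interaction. Within each combination, the D7 and D12 comparisons use the same D0 libraries, and so do both interactions. Over D0 to D7, 1 member was called (10.1% of all genes): the rise of Mycn was larger in NanogBiD by 2.87 (SE 0.62, adjusted p = 0.00318). Over D0 to D12, 4 were called (23.9% of all genes). The change in NanogBiD minus that in NanogWT was -2.40 for Myc (SE 0.40, adjusted p = 0.000115), 2.04 for Mycn (SE 0.62, adjusted p = 0.014), -1.87 for Mxd4 (SE 0.33, adjusted p = 0.000233) and 1.14 for Mxi1 (SE 0.22, adjusted p = 0.00054). That of Mycl was 1.04 (SE 0.47, adjusted p = 0.0889) and was called only among the settings run when the compared groups were fitted alone (adjusted p = 0.0337). Mxd3 was called for both periods without the second NanogWT D0 library (1.26, adjusted p = 0.035, and 1.2, adjusted p = 0.0245). The D12 call of Mycn was lost with a pseudocount of 0.1 (1.69, adjusted p = 0.216), after rescaling to a common total (1.83, adjusted p = 0.0736), without the second NanogBiD D0 library (1.68, adjusted p = 0.0721) and without the first NanogBiD D12 library (1.85, adjusted p = 0.056).

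The change from iCD3 to N2B27 with 2iL fell between D7 and D10. Over these days 3 members were called in NanogWT (10.3% of all genes) and 4 in NanogBiD (15.7%). NanogWT rose in Mycn by 2.11 (SE 0.44, adjusted p = 0.00124), Mycl by 1.28 (SE 0.33, adjusted p = 0.00753) and Mxd4 by 2.01 (SE 0.24, adjusted p = 3.02e-06). NanogBiD rose in Mycn by 1.94 (SE 0.44, adjusted p = 0.00148), Mycl by 2.78 (SE 0.33, adjusted p = 1.85e-06) and Mxi1 by 1.30 (SE 0.16, adjusted p = 2.55e-06), and fell in Myc by 1.24 (SE 0.28, adjusted p = 0.00174). Without the second NanogWT D10 library, the rise of Mycl was at 0.52 and not called (adjusted p = 0.241) and that of Mycn was 1.09 (adjusted p = 0.0456), while without the first that of Mycl was 2.04 (adjusted p = 4.13e-05). Mycl in NanogWT was also lost without the first D7 library (1.16, adjusted p = 0.0591), and Mycn and Mycl in NanogWT when D7 and D10 alone were fitted (adjusted p = 0.129 and 0.183). Without the second NanogBiD D7 library Myc was at -0.999 and was not called, while Mxd4 was (-1.11, adjusted p = 0.00149), and without the first Mnt was (1.02, adjusted p = 0.0162).

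The test of the difference between the combinations over D7 to D10 was added after seeing the data and called 4 members (15.1% of all genes). It was -2.68 for Mxd4 (SE 0.33, adjusted p = 1.18e-05), -1.97 for Myc (SE 0.40, adjusted p = 0.0013), 1.44 for Mxi1 (SE 0.22, adjusted p = 0.000115) and 1.50 for Mycl (SE 0.47, adjusted p = 0.0248). Day, medium and, in NanogWT, depth all changed over D7 to D10, and their parts cannot be told apart. The Mycl call was lost in 7 of the alternatives run (0.74 to 1.50, adjusted p 0.0833 to 0.213), and without the second NanogWT D10 library it was 2.25 (adjusted p = 0.000223).

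Within the MYC family, each gene was also followed as its share in the summed FPKM of Myc, Mycn and Mycl. Myc made up 91.5% and 86.5% of it in MEF, 86.1% and 80.7% in NanogWT at D7, and 33.1% and 36.0% in NanogBiD at D7. At D12 Myc made up 32.3% and 40.5% in NanogWT and 1.68% and 3.04% in NanogBiD, where Mycn made up 64.4% and 54.0% and Mycl 33.9% and 42.9%. In the mES library Mycn made up 79.8%, Mycl 16.3% and Myc 3.96%. A share can fall because another gene rises. In NanogWT, Myc itself was at 4.92 and 6.43 FPKM at D7 and at 10.4 and 13.9 at D12, while its share fell.

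**Figure D4:**
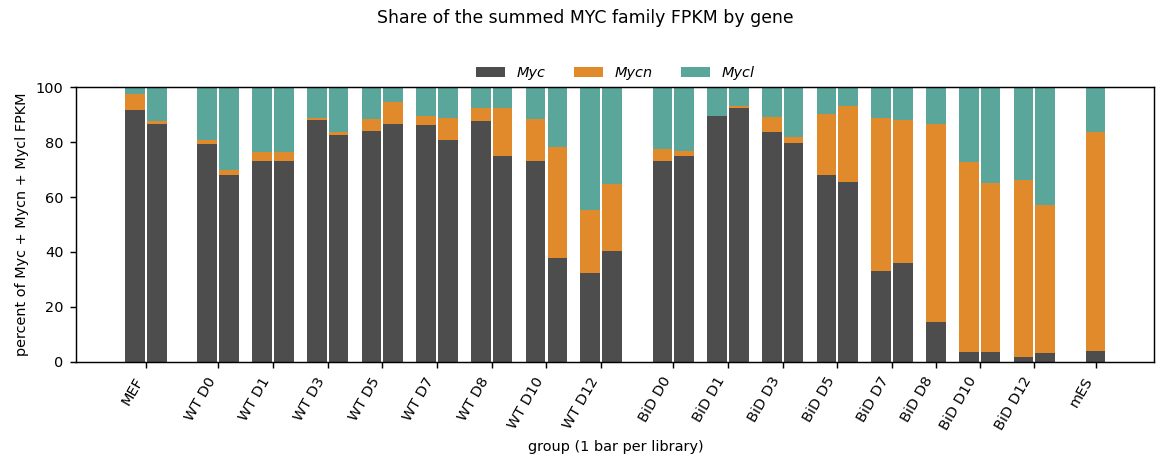
Share of Myc, Mycn and Mycl (vertical axis, percent) in their summed FPKM for each library of the gene table (horizontal axis, 1 bar per library, grouped by combination and day). Mycn takes 55.8% and 52.3% in NanogBiD at D7 and 3.40% and 8.19% in NanogWT at D7.

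The sum of the 3 MYC genes was 1.35 times that of Max in both MEF libraries of the gene table. It fell to 0.188 and 0.281 times in NanogWT at D7 and stood at 0.846 and 1.10 times in NanogBiD at D7. At D12 it was 1.17 and 1.40 times in NanogWT and 2.90 and 3.52 times in NanogBiD, against 1.89 times in mES. The summed FPKM of the 5 repressor genes was 82.4 and 61.7 in NanogWT and 45.6 and 47.3 in NanogBiD at D12, and the groups did not overlap in either sum. Mxd4 carried the second difference: without it the other 4 repressor genes summed to 31.9 and 26.2 FPKM in NanogWT and 38.8 and 40.6 in NanogBiD, which is the opposite direction and again without overlap.

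Genes that work with or under the network were followed as lists. Over all genes, 5.79% were called higher in NanogBiD at D7 and 4.65% lower. The shares were 15.4% and 12.3% for D10 and 13.5% and 9.97% for D12. At D7, 10 of 20 ribosome biogenesis targets of MYC were higher in NanogBiD and 0 lower, with a median log2 difference of 0.99 beside 0.08 over all genes. Dkc1, the pseudouridine synthase of ribosomal RNA, was the highest (2.01, SE 0.23, adjusted p = 1.82e-06), and Pes1, a ribosome assembly factor, the lowest of the list (0.39). At D10, 14 were higher and 0 lower (median 1.37 beside 0.10), and at D12, 13 and 0 (median 1.10 beside 0.17). At D1, when Myc alone of the members was called, 0 of these 20 were called and the median was 0.42 beside 0.02. The 10 proliferation markers had a median of 0.46 at D1, also with 0 called. At D3 and D5, when Myc was not called, the median of the 20 targets was 0.33 and 0.38 (beside 0.04 and 0.08), with 0 called. Whether the D1 median went with Myc was not tested.

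Of 20 metabolism and growth targets, 7 were higher in NanogBiD at D7 and 0 lower (median 0.79), 12 and 0 at D10 (median 1.37) and 9 and 1 at D12 (median 0.91). Tfrc, the transferrin receptor, was the highest at D7 (2.39, SE 0.23, adjusted p = 2.92e-07) and D10 (2.93, SE 0.23, adjusted p = 6e-09). Ccnd2, a D-type cyclin, was the lowest at D12 (-1.14, SE 0.26, adjusted p = 0.0011). In these 2 target lists, CACGTG was in the promoter windows of 4 of 15 ribosome biogenesis genes and 9 of 18 metabolism and growth genes with a window.

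Of 8 genes that MYC is known to repress, at D7 1 was higher in NanogBiD and 0 lower. At D10, 2 were higher and 2 lower, and at D12 the counts were 2 and 1. The median was -0.13 at D7 and 0.04 at D10 and D12, and after rescaling to a common total it was -0.05 at D10 and -0.01 at D12. Txnip, an inhibitor of glucose uptake, was the highest at D7 (3.04, SE 0.21, adjusted p = 2.54e-09) and D12 (2.85, SE 0.21, adjusted p = 1.9e-09). Cdkn2b, which encodes the cyclin-dependent kinase inhibitor p15, was the lowest at D10 (-2.68, SE 0.27, adjusted p = 8.61e-08) and D12 (-2.05, SE 0.27, adjusted p = 2.86e-06). Between the combinations, the list as a whole did not move in 1 direction. From D0 to D12 in NanogBiD (34.7% of all genes called), 6 of the 8 were higher and 1 lower (median 1.73 beside 0.34 over all genes). In NanogWT (16.2%), 3 were higher and 0 lower over the same days (median 0.54 beside 0.19).

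Of the genes for cofactors, corepressors, MYC turnover and the wider dimerisation network, some were called higher in NanogBiD late and most were not called. At D12, 4 of 10 cofactors of MYC were higher and 0 lower, with Ruvbl2, a chromatin remodelling ATPase, the highest (1.58, SE 0.22, adjusted p = 7.88e-06). Of the 6 corepressors used by MXD and MNT, 2 were higher and 0 lower, with Sin3a, the scaffold that MXD proteins bind, the highest (1.22, SE 0.14, adjusted p = 7.95e-07). Of 8 genes for turnover of MYC protein, 3 were higher and 0 lower, led by the deubiquitinase Usp28 (2.37, SE 0.19, adjusted p = 6e-09). Of 4 genes of the wider dimerisation network 1 was higher and 0 lower, Mlxipl, a glucose-responsive partner of MLX (1.67, SE 0.11, adjusted p = 7.95e-10). At D7 the counts were 2, 1, 3 and 0 higher, with 0 lower in each.

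Markers of division moved with these lists, and their part in the target lists was not tested: 6 of 10 proliferation markers were higher in NanogBiD at D7, 10 at D10 and 9 at D12, and 0 were lower. Their summed level was 126 to 209 FPKM in the NanogWT libraries of D8 to D12 and 584 to 818 in those of NanogBiD. All 10 pluripotency markers were higher in NanogBiD at D7, D10 and D12. Earlier, at D5 (6.48% of all genes called), 4 of 10 fibroblast markers were lower and 3 of 10 pluripotency markers higher, led by Tdgf1 (4.12). Of 5 neural markers, 2 were higher at D5, led by Tubb3 (3.56). At D3 (3.70%) the counts were the same for fibroblast and neural markers, and 2 pluripotency markers were higher. At D7, 3 fibroblast markers and 1 endothelial marker, Tek (-1.03), were lower, and 2 neural markers were higher, led by Stmn2 (3.16). At D5 and D7, 0 of 6 macrophage markers were called. Of other cell types, 0 of 6 macrophage markers were called at D10 or D12, and 4 of 5 neural markers were higher at D10 and 1 at D12. Of 3 endothelial markers tested, Pecam1 was higher at D10 (2.96) and D12 (3.29). Tek was lower at D10 (-1.56) and Kdr at D12 (-1.08). From D8 on, summed neural markers were at 32.4 to 324 FPKM in NanogWT and 230 to 612 in NanogBiD. Summed macrophage markers were at 2.99 to 14.4 and 3.31 to 7.16, and summed endothelial markers at 4.16 to 7.29 and 5.09 to 28.3. In mES these sums were 74.2, 7.77 and 48.6 FPKM. Over the 34 libraries, Pecam1 reached 47.4 FPKM and Cdh5 0.899, while Tie1 was listed at 0 in 27.

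In established iPSC, Mycn, Mycl and Mxi1 were higher than in MEF and Mxd4 lower, while Myc was not called and spread widely among the NanogBiD iPSC. By summed transcripts, Mycn was at 1.46 and 0.361 FPKM in MEF, at 46.3 to 84.1 (median 53.2) in the 6 NanogWT iPSC and 43.1 to 79.2 (median 53.7) in the 6 NanogBiD iPSC, with 26.5 in mES. Mycl was at 0.694 and 3.78 in MEF and 9.79 to 19.5 in the 12 iPSC. Myc was at 22.4 and 25.8 in MEF, 9.84 to 12.7 in NanogWT iPSC and 1.49 to 22.5 in NanogBiD iPSC, against 1.26 in mES. All 12 iPSC were above mES in Mycn, Mycl and Myc, and Myc of 1 NanogBiD iPSC reached the MEF level.

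Compared with MEF, 4 members were called in iPSC (40.7% of 13312 genes). Mycn was higher by 4.92 (SE 0.22, adjusted p = 1.97e-09), Mycl by 2.56 (SE 0.31, adjusted p = 1.09e-05) and Mxi1 by 1.14 (SE 0.15, adjusted p = 2.26e-05), and Mxd4 was lower by -3.12 (SE 0.37, adjusted p = 8.12e-06). Mxd4 was at 30.7 and 23.1 FPKM in MEF and 0.577 to 6.84 in iPSC, and Mxi1 at 3.12 and 3.84 in MEF and 6.80 to 13.3 in iPSC, and neither gene's groups overlapped. Myc differed by -1.13 (SE 0.51, adjusted p = 0.063) and was not called. It was called after rescaling to a common total (-1.42, adjusted p = 0.0414), with quantile normalization (-1.30, adjusted p = 0.0393) and without NanogBiD iPSC1 clone 4 (-1.32, adjusted p = 0.00361), the library at 22.5 FPKM. Mxd3 was called lower after rescaling (adjusted p = 0.000388) and without the second MEF library (-1.16, adjusted p = 0.000686), and Mnt higher without the first MEF library (1.03, adjusted p = 0.000311).

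**Figure D5:**
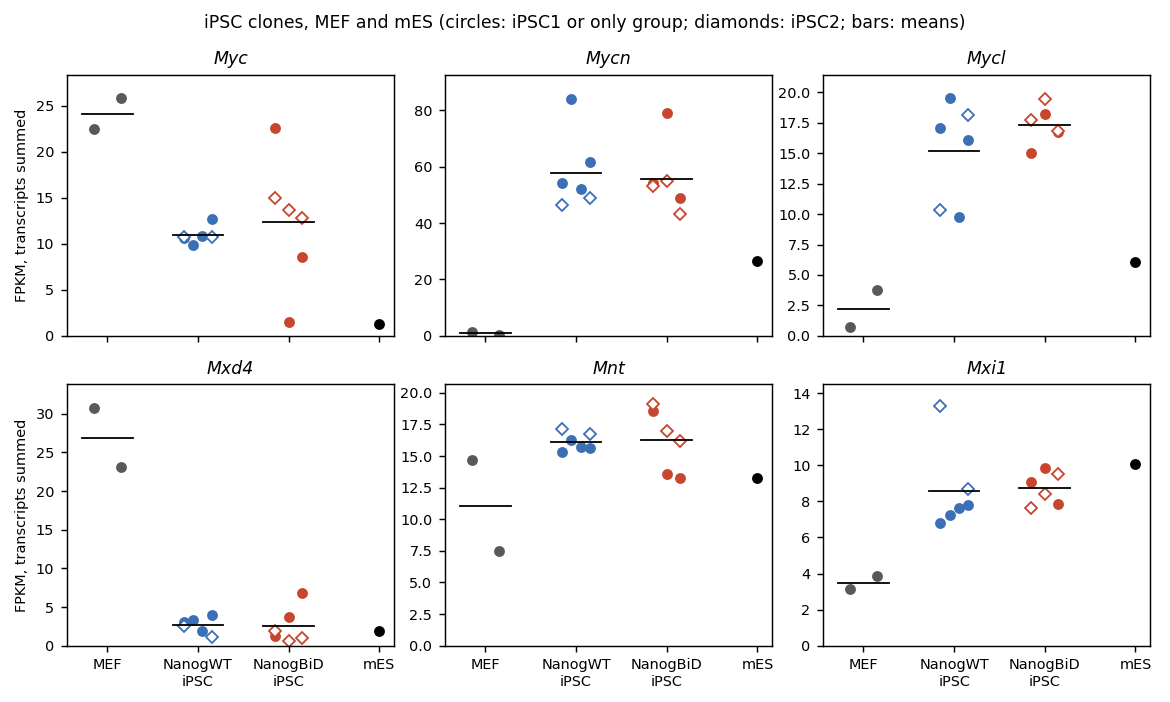
FPKM of summed transcripts (vertical axis) of 6 members in MEF, the iPSC of each combination and mES (horizontal axis). Points are libraries, filled circles for line iPSC1, MEF and mES and open diamonds for line iPSC2, and bars are group means. NanogBiD iPSC spread from 1.49 to 22.5 FPKM in Myc, while NanogWT iPSC lie between 9.84 and 12.7.

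Between NanogBiD and NanogWT iPSC, limma with the line as covariate called 0 of the 9 members and 0% of 12456 genes, with 0 members at an unadjusted p under 0.05. The 95% interval of the log2 difference was -0.31 to 0.30 for Mycn, -0.14 to 0.58 for Mycl, -1.06 to 0.70 for Myc and -0.71 to 0.54 for Mxd4, so a 2-fold lower Myc lay within it. Myc in NanogBiD iPSC1 was at 22.5 in clone 4, 1.49 in clone 8 and 8.52 in clone 9, and in NanogBiD iPSC2 at 14.998, 13.7 and 12.8. The wide range thus lay in line iPSC1, whose NanogBiD libraries all carry p5 in their column names while those of iPSC2 carry p2. With NanogWT iPSC1 libraries 1 and 1-2 averaged, 0 members were again called between the combinations and 4 between iPSC and MEF. Over all genes, 21.9% were called higher in iPSC than in MEF and 18.8% lower. In the same lists, 17 of 20 ribosome biogenesis targets were higher in iPSC than in MEF and 0 lower (median 1.32 beside 0.22 over all genes), and 0 of 8 genes that MYC represses were higher and 3 lower (median -0.70). Beside these, 9 of 10 proliferation markers and 10 of 10 pluripotency markers were higher in iPSC and 10 of 10 fibroblast markers lower, and their part in the target lists was not tested.

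The genes most like each MYC gene over the 34 libraries of the gene table were named as a description, by Pearson's r of log2(FPKM + 1), and the libraries share combinations and days. For Myc they were Vasn (r = 0.893), Tpm1 (0.876) and Tgfb1i1 (0.867). For Mycn they were Tdh (0.972), Sox13 (0.970) and Fzd10 (0.966), and for Mycl Nkain4 (0.912), Adgrg1 (0.900) and Rnf165 (0.895). Among the members, r was -0.56 between Myc and Mycn, 0.77 between Mycn and Mycl, 0.88 between Mycl and Mxi1 and 0.58 between Myc and Mxd4. Among the other members, Mxd4 thus had the highest r with Myc, and Mxi1 with both Mycl and Mycn. Myc and Mxd4 did not move together throughout: in NanogWT from D0 to D12, Mxd4 differed by 0.69 and Myc by -0.31, neither called.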

How the data were processed

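By the submitters' processing notes and the study's methods, the authors trimmed reads with Trim Galore 0.6.4, aligned them to mm10 with HISAT2 2.2.1 and quantified them with StringTie 2.2.1. The library kit is named differently in the labels and the methods. The deposited values are FPKM, per gene (34 libraries) and per transcript (15 libraries), with replicates apart. The annotation and strand setting are not given in the sources used here. The authors' GFOLD calls need reads and were not used.

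Values were analysed as log2(FPKM + 1) with limma 3.58.1 (R 4.3.3; lmFit, contrasts.fit, eBayes with trend), over genes reaching 1 FPKM in 2 or more of the fitted libraries, and p-values were Benjamini-Hochberg adjusted over all genes fitted. Calls required both an adjusted p below 0.05 and a change of 1 or more on the log2 scale. All tests were two-sided. All time-course groups shared 1 estimate of the spread. The single NanogBiD D8 library was not tested and, fitted by its own mean, added no spread to that estimate. Fold changes on this scale understate those of low genes. FPKM carry no count interval. Relative depth was read from the FPKM step of 1 read in genes under 1 FPKM. The 2 tables were tested apart. The fit was tested on simulated data.

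The members and gene lists were chosen with earlier results of these data known. All 9 members are named. Of other lists the text gives counts, the median and the highest or lowest gene, and for Myc, Mycn and Mycl the 3 nearest genes. Gene positions and overlaps were read from GENCODE annotation of mm10 and promoters from RefSeq. Alternatives were the pseudocount, filter, scaling, fold limit, samples fitted, replicate block and leaving out libraries.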

Additional observations from a re-analysis of the deposited data

Results flagged for a closer look

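The change from D0 or D7 differed between the combinations for several members, by the interaction tests. Over D0 to D7 the NanogBiD minus NanogWT difference of changes was 2.87 (log2) for Mycn. Over D0 to D12 it was -2.40 for Myc, 2.04 for Mycn, -1.87 for Mxd4 and 1.14 for Mxi1. Over D7 to D10, in the test added after seeing the data, it was -1.97 for Myc, 1.50 for Mycl, -2.68 for Mxd4 and 1.44 for Mxi1. The Mycn result over D0 to D7 is the only 1 of these 9 that rests on libraries of like depth alone.

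Among the iPSC, 27 sets of samples were examined with Dixon's test (9 genes in the NanogWT iPSC, the NanogBiD iPSC and NanogWT iPSC1). In 4 of them a library had a gap to its neighbour that was large for the range of its set. Chance gives about 1 in 20 for a single set, but these sets share libraries and NanogWT iPSC1 lies within the NanogWT iPSC. The count therefore cannot be compared with that rate. Mycn was at 79.2 FPKM in NanogBiD iPSC1 clone 8, next to 54.8, a gap of 0.677 of the range of 6 libraries. This is also the clone with the lowest Myc, at 1.49 FPKM. Myc was at 12.7 in NanogWT iPSC1 clone 3, next to 10.9 (gap 0.631, barely past the limit for 6 libraries). Among the 4 libraries of its own line the same gap was not past the limit. NanogWT iPSC2 clone 5 stood high in both Mxd1, at 2.78 next to 1.44 (gap 0.665), and Mxi1, at 13.3 next to 8.68 (gap 0.710).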

How the results depend on the processing

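With libraries left out 1 at a time, the number of member calls ranged from 12 to 15 (14 in the fit reported) for NanogBiD against NanogWT, 10 to 13 (12) for change from D0, 4 to 7 (5) for the interaction with D0, 6 to 8 (7) for D7 to D10, 0 to 2 (0) for D0 against MEF, 4 to 5 (4) for iPSC against MEF, 0 to 0 (0) between iPSC, and, in the comparisons added later, 1 to 3 (3) for D0 to D1 and 3 to 4 (4) for the interaction over D7 to D10. D0 against MEF gave 1 call with a pseudocount of 0.1 and 4 with no fold limit, iPSC against MEF 7 with no fold limit, and D0 to D1 6 with no fold limit and 0 when fitted to the compared groups alone. The other counts stayed within 1.5 times of those reported, and no member's called difference changed sign. Calls over all genes moved from 1441 to 2543 (pseudocount of 0.1) and 740 (compared groups alone) for D0 against MEF, and from 2836 to 4662 and 930 for D0 to D1, and with no fold limit they rose by over 1.5 times in every comparison that had any. The labels do not say if equal replicate numbers mark paired libraries. Deviations of same-numbered libraries correlated at -0.06 to 0.39 over 7 days, with 0.23 at D0 and 0.39 at D7, so pairing on some days is not excluded. With the number as 1 replicate block over all days the counts were 14, 12, 5, 7, 3 and 4, and no member call changed. Such a block does not cover pairing within a day. No paired analysis was possible for D0 against MEF or between iPSC and MEF because their numbers mark no shared sample. In changes from D0, the median of all genes was 0.12 to 0.34 as deposited, 0.27 to 0.43 after rescaling to a common total and -0.05 to -0.01 after quantile normalization. Depth sets the limit for genes near 1 FPKM, where the 1-FPKM pseudocount holds differences down.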
